A study of Mus musculus with 12 samples.

Results

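The Hox genes of the 4 mouse clusters were followed by cluster and by paralog number in mouse embryonic fibroblasts (MEFs). All genes named Hoxa, Hoxb, Hoxc or Hoxd and a number that were listed for this purpose were taken, 38 in all. None was left out for its value, but the set was chosen with earlier results of these data known. Of these, 37 were matched by symbol to 1 of the 37991 Ensembl gene identifiers of the count files, 10 in the Hoxa, 10 in the Hoxb, 9 in the Hoxc and 8 in the Hoxd cluster, and no value is given for Hoxd4. RNA-seq was carried out on primary FVB MEFs, grown from embryonic day 13.5 embryos and used at passage 3, in 4 groups of 3 samples. Wild-type MEFs and MEFs homozygous for the E2f1 3KR allele, in which the acetylated lysines of E2F1 are replaced by arginine in every cell, were harvested either without treatment or 3 h after addition of NCS at 250 ng/ml. NCS (neocarzinostatin) is a drug that breaks DNA as ionizing radiation does. The parents of the embryos were heterozygous or homozygous, and the labels do not say which samples came from the same embryo. The p-values below therefore measure the spread between these samples, which may be partly technical. Beyond counting error, that spread was 3.95% (edgeR common coefficient of variation). The p-values may thus not measure the spread between embryos of a genotype.

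Hox genes encode homeodomain transcription factors that give cells of the embryo their position along the head-to-tail axis and along the limbs. They lie in 4 clusters that arose by duplication, here Hoxa on chromosome 6, Hoxb on chromosome 11, Hoxc on chromosome 15 and Hoxd on chromosome 2, and genes with the same number in different clusters are paralogs. Within a cluster, genes with low numbers are active early and far anterior, in the hindbrain and neck, and genes with high numbers late and posterior, in the lower trunk, the tail and the ends of the limbs. Fibroblasts grown from different sites of the body keep different Hox patterns in culture. In the text, paralog groups 1 to 3 are called anterior (7 matched genes), 4 to 8 central (14) and 9 to 13 posterior (16). The question put to these data was how the 3KR allele and NCS change gene expression, and it is asked here of the Hox genes.

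The total count on genes lay between 33203757 and 45279321 in each library. Levels are given as normalized counts, scaled with DESeq2 size factors, and levels of different genes are compared only per kb of exon. E2f1 itself did not differ detectably between untreated genotypes (log2 fold change -0.03, edgeR FDR = 0.71). Several properties of the cultures moved with the genotype. Xist, the RNA that coats the inactive X chromosome, had 44.98 ± 3.40 normalized counts (SD, n = 3) in untreated wild-type and 30612 ± 31.6 in untreated 3KR MEFs, and the Y-linked gene Ddx3y 5513 ± 142 and 11.1 ± 0.270, so that sex and genotype cannot be told apart. Of 11 fibroblast markers, all were detected, 9 were higher and 2 lower in untreated 3KR MEFs (median log2 fold change 0.30), and their summed level, mostly collagens and Fn1, was 2326213 to 2419288 normalized counts in untreated wild-type and 2537975 to 2613231 in untreated 3KR MEFs. Of 7 Schwann cell and neural crest markers, 5 were lower in untreated 3KR MEFs, and their summed level ranged from 7719 to 8047 in wild-type and from 1613 to 1655 in 3KR MEFs. All 10 macrophage markers were higher, with sums of 4050 to 4787 and 7788 to 8021, and none of these markers was at or under 3 counts in any group. Of 11 tested genes that mark the limbs or other regions, 10 were higher and 1 lower, with sums of 4578 to 4654 and 9916 to 10212. Of the tested markers of other cell types, 0 of 2 of skeletal muscle were higher and 2 lower, 1 and 2 of 4 of neurons, 3 and 1 of 4 of cartilage, 2 and 1 of 3 of epithelium and 0 and 1 of 4 of endothelium. Summed over all listed genes, cartilage markers had 25353 to 25421 in untreated wild-type and 15946 to 16634 in untreated 3KR MEFs. The sum was thus lower, although 3 of 4 tested genes were higher. Sums were 4517 to 4742 and 1548 to 1645 for skeletal muscle and 5866 to 6323 and 4578 to 4826 for neurons. Those for endothelium were 219 to 237 and 190 to 205, and for epithelium 95.4 to 97.8 and 113 to 123. These counts are to be read against all genes tested, of which 22.1% were higher and 23.6% lower in untreated 3KR MEFs. The part of these markers in the Hox values below was not tested. In bulk RNA, fewer cells that express a gene and less RNA of it per cell cannot be told apart. Both wild-type samples numbered 3, untreated and NCS-treated, stood apart from the other wild-type samples (chi-square per gene 7.57 to 9.37, against at most 2.34 for other pairs of the same group). The Hox counts of the genotype comparisons are given with and without them.

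High-numbered genes of the Hoxa, Hoxc and Hoxd clusters were higher in 3KR than in wild-type MEFs, Hoxc12 being called only after NCS, and low-numbered genes of the Hoxa and Hoxb clusters were lower. Of the posterior Hoxb genes, Hoxb9 was lower, and Hoxb13 was higher but passed the filter on low counts only through its level in 3KR MEFs. Hoxd3, the only low-numbered Hoxd gene tested, was lower in untreated cells and not called after NCS. By class, 0 anterior genes were higher and 5 lower of 5 tested in untreated cells, 3 central genes were higher and 9 lower of 14, and 14 posterior genes were higher and 1 lower of 16. Leaving out Hoxb13, which had few reads, the values in untreated cells ran from a 3.66-fold lower level of Hoxa3, a gene of the throat and neck, to a 6.53-fold higher level of Hoxa13, a gene of the digits and the genital tubercle. Of the 35 Hox genes that passed the filter on low counts, 17 were higher in untreated 3KR MEFs and 15 were lower at an edgeR FDR of 0.05, against 22.1% and 23.6% of all 15327 genes tested (45.7% in either direction). The other 3 were Hoxc4, Hoxc5 and Hoxc12. After NCS, 18 were higher and 14 lower, against 22.9% and 23.6% of all genes (46.5% in either direction), and those not called were Hoxc4, Hoxc5 and Hoxd3. The changes were larger than those of most genes. The median absolute log2 fold change was 1.12 for the Hox genes and 0.18 for all genes without treatment, and 1.07 and 0.19 after NCS. In untreated cells, 13 Hox genes were higher by more than 1 on the log2 scale (4.36% of all genes) and 8 lower by more than 1 (4.23%). After NCS these were 15 (3.88% of all genes) and 5 (4.07%).

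The 3 untreated 3KR samples lay above the 3 untreated wild-type samples for 18 Hox genes (27% of all genes did so) and below them for 15 (26.6%), and the samples overlapped only for Hoxc4 and Hoxc5. After NCS they lay above for 19 (27%) and below for 14 (27.3%), and overlapped for Hoxc5 and Hoxd3. The comparisons with and without NCS use different libraries, but they come from the same fit and may share embryos. Their agreement is therefore not an independent repeat. Of the 35 genes, 31 (88.6%) were called in the same direction in both, 17 higher and 14 lower, against 34.8% of all tested genes. Without both wild-type samples numbered 3, the counts were 17 higher and 16 lower in untreated cells and 18 higher and 14 lower after NCS. The share of all genes called in that fit is not given here. As single samples were left out, 17 Hox genes were higher and 15 to 16 lower in untreated cells, and 18 and 14 after NCS. Over all genes, these fits called 6266 to 6871 in untreated cells and 6275 to 6839 after NCS. Across the 35 genes, the log2 fold change rose with the paralog number (Spearman's rho 0.89 in untreated and 0.87 in NCS-treated cells). In untreated cells rho was 0.92 over 10 Hoxa genes, 0.97 over 9 Hoxb genes, 0.82 over 9 Hoxc genes and 0.71 over 7 Hoxd genes. After NCS it was 0.98, 0.62, 0.90 and 1. Without Hoxb13, chosen for removal after seeing the data, rho over the 8 other Hoxb genes was 0.95 in untreated and 0.45 in NCS-treated cells, and over all 34 other genes 0.88 and 0.86. These values describe the order of genes measured in the same libraries, and neighbouring genes share regulatory DNA, so no p is given.

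**Figure D1:**
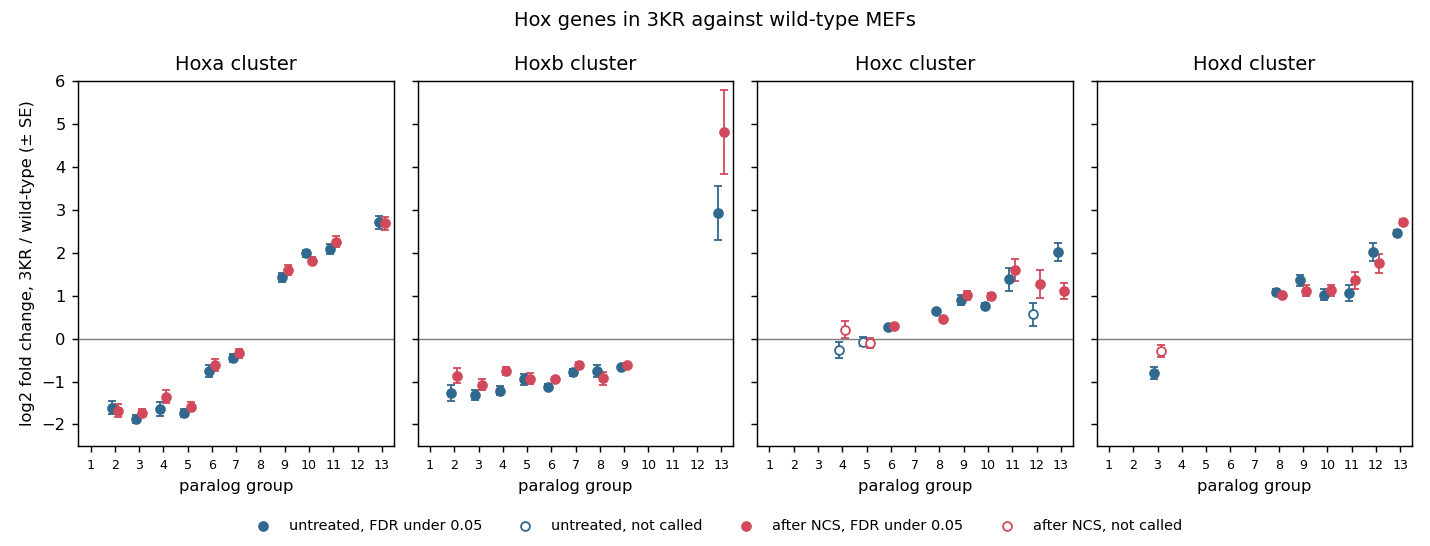
Genotype difference as log2 of 3KR over wild-type MEFs (y axis, edgeR estimate, bars ± SE) by paralog group (x axis) in each Hox cluster, for untreated and NCS-treated cells. Filled points passed an FDR of 0.05 and open points did not. Hoxa changes sign between Hoxa7 (-0.45) and Hoxa9 (1.43), Hoxb is below 0 up to Hoxb9 (-0.66), and the Hoxb13 points rest on at most 29 reads per sample.

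In the Hoxa cluster the change of direction fell between Hoxa7 and Hoxa9. The 6 genes from Hoxa2 to Hoxa7 were lower and the 4 from Hoxa9 to Hoxa13 were higher in 3KR MEFs, in both treatments. Hoxa2, which patterns the hindbrain and the second branchial arch, had 222, 217 and 234 normalized counts in untreated wild-type and 71.6, 85.3 and 65.5 in untreated 3KR MEFs, and 214, 195 and 227 against 61.8, 49.0 and 85.8 after NCS. Hoxa3, needed for the thymus and parathyroid glands, had 662, 589 and 629 normalized counts in untreated wild-type and 152, 163 and 199 in untreated 3KR MEFs, and 659, 612 and 575 against 176, 181 and 196 after NCS. Hoxa4, a gene of the neck region, had 148, 144 and 138 normalized counts in untreated wild-type and 36.3, 49.9 and 51.8 in untreated 3KR MEFs, and 136, 127 and 123 against 45.6, 50.2 and 55.8 after NCS. In these 3 genes every 3KR sample was below every wild-type sample of the same treatment. The log2 fold changes in untreated cells were -1.61 ± 0.15 (SE, edgeR FDR = 2.65e-09) for Hoxa2, -1.87 ± 0.09 (FDR = 3.71e-14) for Hoxa3 and -1.64 ± 0.15 (FDR = 4.81e-09) for Hoxa4.

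Hoxa5, which acts in the lung and the lower neck, had 650.3, 612 and 705 normalized counts in untreated wild-type and 192, 222 and 180.0 in untreated 3KR MEFs, and 598, 596 and 725 against 211, 190.2 and 237 after NCS. Its log2 fold change was -1.74 ± 0.10 without treatment (SE, edgeR FDR = 4.62e-13) and -1.58 ± 0.10 after NCS (FDR = 3.37e-12). Differences were smaller for the next genes of the row. Hoxa6 had 215, 191 and 206 normalized counts in untreated wild-type and 131, 104 and 128 in untreated 3KR MEFs, and 167, 186 and 193 against 129.6, 137 and 93.1 after NCS. Hoxa7 had 234, 223 and 251 normalized counts in untreated wild-type and 174, 190.3 and 156 in untreated 3KR MEFs, and 245, 282 and 249.8 against 208, 209 and 195 after NCS. The samples did not overlap, and the log2 fold changes were -0.76 ± 0.13 for Hoxa6 (SE, edgeR FDR = 4.67e-05) and -0.45 ± 0.10 for Hoxa7 (FDR = 8.83e-04) in untreated cells. After NCS, Hoxa7 changed by -0.35 (edgeR FDR = 0.0069), or by -0.28 (FDR = 0.0526) without NCS-treated wild-type replicate 2.

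Beyond the break, Hoxa9, a regulator of blood stem cells that also acts in the upper limb, had 147, 154 and 143 normalized counts in untreated wild-type and 398, 425 and 377 in untreated 3KR MEFs, and 106, 141 and 158 against 397, 389.7 and 446 after NCS. Hoxa10, which patterns the lumbar spine, the thigh and the uterus, had 212, 177 and 195 normalized counts in untreated wild-type and 857, 740.5 and 740.1 in untreated 3KR MEFs, and 204, 230.5 and 221 against 764, 744 and 789.9 after NCS. These genes were 2.69-fold and 3.97-fold higher in untreated 3KR MEFs, with log2 fold changes of 1.43 ± 0.11 (SE, edgeR FDR = 1.22e-10) and 1.99 ± 0.08 (FDR = 1.19e-15). Hoxa11, which acts in the forearm and lower leg, had 82.0, 83.2 and 70.4 normalized counts in untreated wild-type and 321, 340.1 and 345 in untreated 3KR MEFs, and 56.4, 82.1 and 76.6 against 354, 355 and 327 after NCS. Hoxa13 had 46.4, 31.4 and 31.0 normalized counts in untreated wild-type and 263, 263 and 203 in untreated 3KR MEFs, and 41.0, 36.0 and 44.8 against 259, 264 and 258 after NCS. The lowest 3KR sample of Hoxa13 was thus above 4 times the highest wild-type sample of the same treatment. The log2 fold changes of Hoxa11 and Hoxa13 were 2.08 ± 0.12 (SE, edgeR FDR = 4.34e-13) and 2.71 ± 0.16 (FDR = 9.46e-13) without treatment. After NCS they were 2.26 ± 0.12 and 2.68 ± 0.16.

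The strand setting of the counting program is not given in the sources used here. Reads of exons that overlap another gene may thus have been counted for the wrong gene or left out. Several Hox genes share exons with transcripts on the other strand. Over the exons of GENCODE release M21, this holds for 35.0% of the exon length of Hoxa11 (partner Hoxa11os), 25.4% of Hoxa3, 20.4% of Hoxa7 and 16% of Hoxa4, and for 52.9% of Hoxb3 and 27.3% of Hoxb2 (partner Hoxb3os). On the same strand, 62.4% of Hoxd3 is shared with Hoxd4 and a predicted transcript and 15.0% of Hoxa2 with another. Hoxa5, Hoxb4, Hoxb6 and Hoxb9, which were lower, and Hoxa10, Hoxa13, Hoxc8, Hoxd8 and Hoxd13, which were higher, share none.

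The start regions of the genes that moved most are shown for their base composition. RefSeq promoter windows of build GRCm38.p6 were found for 21 of the Hox genes, in 23 entries, and the 250 bases before each start were used. The count files were made on another build (mm9) and give no coordinates, so the positions below belong to the promoter windows only. The 4 windows printed are those of the genes with the largest falls and rises whose window holds no annotated exon, with each CpG, the dinucleotide that is methylated in vertebrate DNA and dense in Polycomb-bound promoters, in capitals.
Hoxa5 (chr6:52204588-52204837, - strand): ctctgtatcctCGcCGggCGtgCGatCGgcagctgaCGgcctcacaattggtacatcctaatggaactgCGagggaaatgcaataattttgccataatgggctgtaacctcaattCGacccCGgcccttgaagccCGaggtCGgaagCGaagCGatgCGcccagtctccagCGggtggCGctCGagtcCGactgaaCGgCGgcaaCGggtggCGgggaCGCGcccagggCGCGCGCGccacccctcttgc
Hoxa2 (chr6:52164832-52165081, - strand): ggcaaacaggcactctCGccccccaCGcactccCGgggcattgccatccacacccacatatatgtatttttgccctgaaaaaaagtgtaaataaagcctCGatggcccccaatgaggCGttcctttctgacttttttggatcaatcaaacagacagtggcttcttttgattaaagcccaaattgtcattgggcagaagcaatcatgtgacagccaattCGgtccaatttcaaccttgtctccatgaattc
Hoxa13 (chr6:52260881-52261130, - strand): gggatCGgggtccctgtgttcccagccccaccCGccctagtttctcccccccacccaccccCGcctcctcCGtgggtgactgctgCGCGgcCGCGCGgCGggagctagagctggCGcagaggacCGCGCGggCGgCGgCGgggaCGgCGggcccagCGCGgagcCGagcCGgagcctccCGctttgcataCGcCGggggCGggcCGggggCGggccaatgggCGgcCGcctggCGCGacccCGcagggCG
Hoxd13 (chr2:74667975-74668224, + strand): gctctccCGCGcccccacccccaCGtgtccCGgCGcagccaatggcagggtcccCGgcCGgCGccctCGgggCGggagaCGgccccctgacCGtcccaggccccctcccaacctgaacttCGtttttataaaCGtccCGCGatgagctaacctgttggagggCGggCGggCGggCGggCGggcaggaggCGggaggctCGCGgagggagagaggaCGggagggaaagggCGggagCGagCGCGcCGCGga
Hoxa13 held 35 CpGs and Hoxd13 31, the Hoxa5 window 28 and that of Hoxa2 6. The median was 13 over the 23 Hox entries and 6 over all 32851 promoter entries. The 8 entries of Hox genes called lower in untreated 3KR MEFs and the 12 entries of those called higher both had a median of 13 CpGs. None of the 23 entries held a match to the E2F site, searched as TTTCCCGC, TTTGGCGC, TTTCGCGC or TTTGCCGC on both strands, which 1.86% of all entries held. TGATTNAT, the site bound by a Hox protein together with a PBX cofactor, was searched on both strands and found in 2.82% of all entries and in 2 Hox entries (8.70%), those of Hoxa2 and of 1 of the 2 starts of Hoxd11. They are shown with the match in capitals.
Hoxa2 (chr6:52164924-52164953, - strand): gacttttttggATCAATCAaacagacagtg
Hoxd11 (chr2:74682239-74682268, + strand): ttaccaccagaATCAATCAagatgaattgc
A match describes the letters and not binding, and a window without one says nothing about the factor.

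In the Hoxb cluster, every gene from Hoxb2 to Hoxb9 was lower in 3KR MEFs in both treatments, and the break lay beyond Hoxb9. Hoxb2, a gene of the hindbrain, had 104, 108 and 97.3 normalized counts in untreated wild-type and 55.4, 45.8 and 28.2 in untreated 3KR MEFs, and 108, 115 and 101 against 58.7, 66.5 and 53.8 after NCS. The next gene, Hoxb3, also of the hindbrain, had 390.2, 414 and 437 normalized counts in untreated wild-type and 165, 161 and 175 in untreated 3KR MEFs, and 368, 336 and 468 against 183, 224 and 151 after NCS. In both genes the 3KR samples lay below the wild-type samples. Hoxb4, which can expand blood stem cells, had 457, 355 and 451 normalized counts in untreated wild-type and 203, 177 and 170.0 in untreated 3KR MEFs, and 427, 386 and 419.9 against 246, 249.7 and 237 after NCS. Hoxb5, which acts in the shoulder region and in the nerve cells of the gut, had 215, 218 and 249 normalized counts in untreated wild-type and 101, 115 and 136 in untreated 3KR MEFs, and 199.9, 226 and 257 against 126, 123 and 109.6 after NCS. The log2 fold changes in untreated cells were -1.27 ± 0.19 (SE, edgeR FDR = 5.63e-06) for Hoxb2, -1.31 ± 0.12 (FDR = 4.75e-09) for Hoxb3, -1.21 ± 0.10 (FDR = 6.11e-10) for Hoxb4 and -0.95 ± 0.13 (FDR = 1.19e-06) for Hoxb5.

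Hoxb6, which is active in lateral plate mesoderm, had 722, 723 and 714 normalized counts in untreated wild-type and 329.5, 343 and 324 in untreated 3KR MEFs, and 807, 845 and 852 against 414, 462 and 424 after NCS. Untreated, it was 2.18-fold lower in 3KR MEFs (-1.12 ± 0.06, SE, edgeR FDR = 4.31e-13). Hoxb7 had 416, 448 and 406 normalized counts in untreated wild-type and 253, 241 and 245 in untreated 3KR MEFs, and 398, 384 and 362 against 246, 245 and 252 after NCS. Hoxb8 had 149, 178 and 195 normalized counts in untreated wild-type and 98.8, 91.5 and 115 in untreated 3KR MEFs, and 153, 169 and 171 against 77.0, 78.2 and 104 after NCS. Again the genotypes did not overlap, with log2 fold changes of -0.78 ± 0.08 (SE, edgeR FDR = 1.23e-08) and -0.76 ± 0.14 (FDR = 9.62e-05) in untreated cells. Hoxb9, which acts in the rib cage, took more reads than any other Hox gene and had 2789, 2789 and 3087 normalized counts in untreated wild-type and 1862, 1746 and 1908 in untreated 3KR MEFs, and 2875, 2883 and 3176 against 1948, 1917 and 1966 after NCS. Its difference was smaller than that of the other 7 lower genes of the cluster in untreated cells, -0.66 ± 0.05 without treatment (SE, edgeR FDR = 5.22e-11) and -0.61 ± 0.05 after NCS (FDR = 2.00e-10).

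Hoxb13, known from the tail bud and the prostate, stands far from the other genes on the chromosome and was at a much lower level. Raw counts were 1, 1 and 5 in untreated wild-type and 13, 13 and 29 in untreated 3KR MEFs, and 0, 0 and 1 against 6, 17 and 12 after NCS. Every 3KR sample was above every wild-type sample of the same treatment. The ratio of summed counts, scaled for depth, was 8.13 without treatment (95% exact interval 3.69 to 21.2) and 38.2 after NCS (6.41 to 1550), which covers counting error only. Hoxb13 passed the filter only through its level in 3KR MEFs, so it had to differ. With at least 10 counts required in every sample it was removed, and 16 Hox genes were higher and 15 lower in untreated cells and 17 and 14 after NCS. The share of all genes called with that filter is not given here. Hoxb1, a hindbrain gene, was at 0 or 1 count in every sample and was not tested.

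In the Hoxc cluster no gene was called lower, and 6 of 9 were higher in untreated and 7 in NCS-treated 3KR MEFs. For Hoxc4 a single sample decided the value. It had 531, 249.6 and 233 normalized counts in untreated wild-type and 289, 288 and 285 in untreated 3KR MEFs, and 238, 252 and 246 against 288, 258 and 304 after NCS. Replicate 1 of the untreated wild-type group lay above all 11 other samples, and the remaining wild-type samples lay below the 3KR samples of the same treatment. The log2 fold change was -0.26 ± 0.19 (SE, edgeR FDR = 0.273) with it and 0.25 (FDR = 0.0527) without it. Without replicate 3 of that group it was -0.47 (edgeR FDR = 0.0170), and without both wild-type samples numbered 3 -0.47 (FDR = 0.00146). Hoxc5 ranged from 152 to 186 in untreated cells of either genotype, with a log2 fold change of -0.07 ± 0.11 (edgeR FDR = 0.654).

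Hoxc6, which marks motor neurons at forelimb level, had 689, 729 and 737 normalized counts in untreated wild-type and 847, 823 and 929 in untreated 3KR MEFs, and 826, 821 and 904 against 1052, 992 and 1076 after NCS. It was 1.20-fold higher in untreated 3KR MEFs (0.27 ± 0.06, SE, edgeR FDR = 7.63e-04), whereas its paralogs Hoxa6 and Hoxb6 were lower. Hoxc8, a gene of the upper trunk, had 615, 644 and 660.3 normalized counts in untreated wild-type and 985, 995 and 1019 in untreated 3KR MEFs, and 643, 685 and 703 against 868, 967 and 946 after NCS. Hoxc9, which marks the thoracic spinal cord, had 174, 191 and 177 normalized counts in untreated wild-type and 349.7, 287 and 376 in untreated 3KR MEFs, and 145, 154 and 185 against 342, 312 and 316 after NCS. Hoxc10, of the lumbar region and the hindlimb, had 316, 307 and 289 normalized counts in untreated wild-type and 502, 517 and 539 in untreated 3KR MEFs, and 233, 255 and 257 against 457, 511 and 506 after NCS. For these 3 genes every 3KR sample exceeded every wild-type sample of the same treatment. The log2 fold changes in untreated cells were 0.64 ± 0.06 (SE, edgeR FDR = 1.71e-09), 0.90 ± 0.11 (FDR = 2.74e-07) and 0.76 ± 0.07 (FDR = 8.88e-09).

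The posterior end of the cluster was weakly expressed. Hoxc11, a gene of the hindlimb, had 19.9, 41.6 and 58.0 normalized counts in untreated wild-type and 121, 110.2 and 74.6 in untreated 3KR MEFs, and 30.8, 34.1 and 56.7 against 126, 132 and 112 after NCS. Its log2 fold change was 1.38 ± 0.27 (SE, edgeR FDR = 1.59e-04) in untreated cells. Hoxc13, needed for hair and nails, had 34.0, 26.4 and 18.6 normalized counts in untreated wild-type and 92.7, 114 and 121 in untreated 3KR MEFs, and 39.0, 55.3 and 53.7 against 111, 104 and 108 after NCS. It was 4.06-fold higher in 3KR MEFs without NCS (2.02 ± 0.20, SE, edgeR FDR = 1.59e-08) and 2.17-fold after it (1.12 ± 0.19, FDR = 2.85e-05). Hoxc12 had at most 45.5 normalized counts in any sample. The untreated 3KR samples (30.2, 44.7 and 41.8) lay just above the untreated wild-type samples (27.3, 24.3 and 26.9), with a log2 fold change of 0.56 ± 0.28 (edgeR FDR = 0.106). After NCS it was 1.27 ± 0.32 (edgeR FDR = 0.00198).

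In the Hoxd cluster, all 6 tested genes from Hoxd8 to Hoxd13 were higher in 3KR MEFs in both treatments. Hoxd13, which shapes the digits, had 205, 205 and 203 normalized counts in untreated wild-type and 1159, 1122 and 1104 in untreated 3KR MEFs, and 171, 219 and 192 against 1302, 1259 and 1298 after NCS. This was a 5.49-fold difference in untreated and a 6.60-fold difference in NCS-treated cells, and no wild-type sample was above 219 and no 3KR sample below 1104. With log2 fold changes of 2.46 ± 0.07 (SE, edgeR FDR = 8.78e-19) and 2.72 ± 0.07 (FDR = 1.87e-19), it had the lowest FDR of any Hox gene. Hoxd12 had 24.03, 20.3 and 25.9 normalized counts in untreated wild-type and 81.6, 115 and 90.9 in untreated 3KR MEFs, and 20.5, 23.0 and 28.9 against 69.9, 93.3 and 82.7 after NCS. Its neighbour Hoxd11, which acts with Hoxa11 in the forearm, had 75.4, 61.9 and 114 normalized counts in untreated wild-type and 166, 149.8 and 205 in untreated 3KR MEFs, and 46.1, 69.1 and 80.6 against 164, 144 and 195 after NCS. Wild-type samples of Hoxd11 spread widely, but none reached a 3KR sample of the same treatment. In untreated cells the log2 fold changes were 2.02 ± 0.22 (SE, edgeR FDR = 3.88e-08) for Hoxd12 and 1.06 ± 0.19 (FDR = 8.17e-05) for Hoxd11.

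Hoxd10, active in the limbs and the lumbar spinal cord, had 91.1, 85.2 and 107 normalized counts in untreated wild-type and 171, 184 and 219 in untreated 3KR MEFs, and 108, 92.2 and 90.6 against 219, 207 and 206 after NCS. Hoxd9 had 69.6, 71.0 and 78.7 normalized counts in untreated wild-type and 197, 193 and 174 in untreated 3KR MEFs, and 81.0, 91.3 and 63.7 against 179, 172 and 163 after NCS. Hoxd8 had 298, 333 and 328 normalized counts in untreated wild-type and 662, 685 and 679 in untreated 3KR MEFs, and 316, 301 and 286 against 593, 596 and 628 after NCS. These 3 genes were 2.03-fold, 2.56-fold and 2.11-fold higher in untreated 3KR MEFs, with log2 fold changes of 1.02 ± 0.13 (SE, edgeR FDR = 5.73e-07), 1.36 ± 0.14 (FDR = 1.49e-08) and 1.08 ± 0.07 (FDR = 3.76e-12). Hoxd3, which shapes the first neck vertebra, went the other way in untreated cells. It had 162, 145 and 160.4 normalized counts in untreated wild-type and 75.6, 94.6 and 100.0 in untreated 3KR MEFs, and 144, 109 and 132 against 100.3, 111 and 103 after NCS. The log2 fold change was -0.79 ± 0.14 (SE, edgeR FDR = 5.32e-05) without treatment. After NCS it was -0.29 ± 0.14 (edgeR FDR = 0.103), or -0.40 (FDR = 0.0372) without NCS-treated wild-type replicate 2. Hoxd1 had at most 10 counts in any sample and was not tested.

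**Figure D2:**
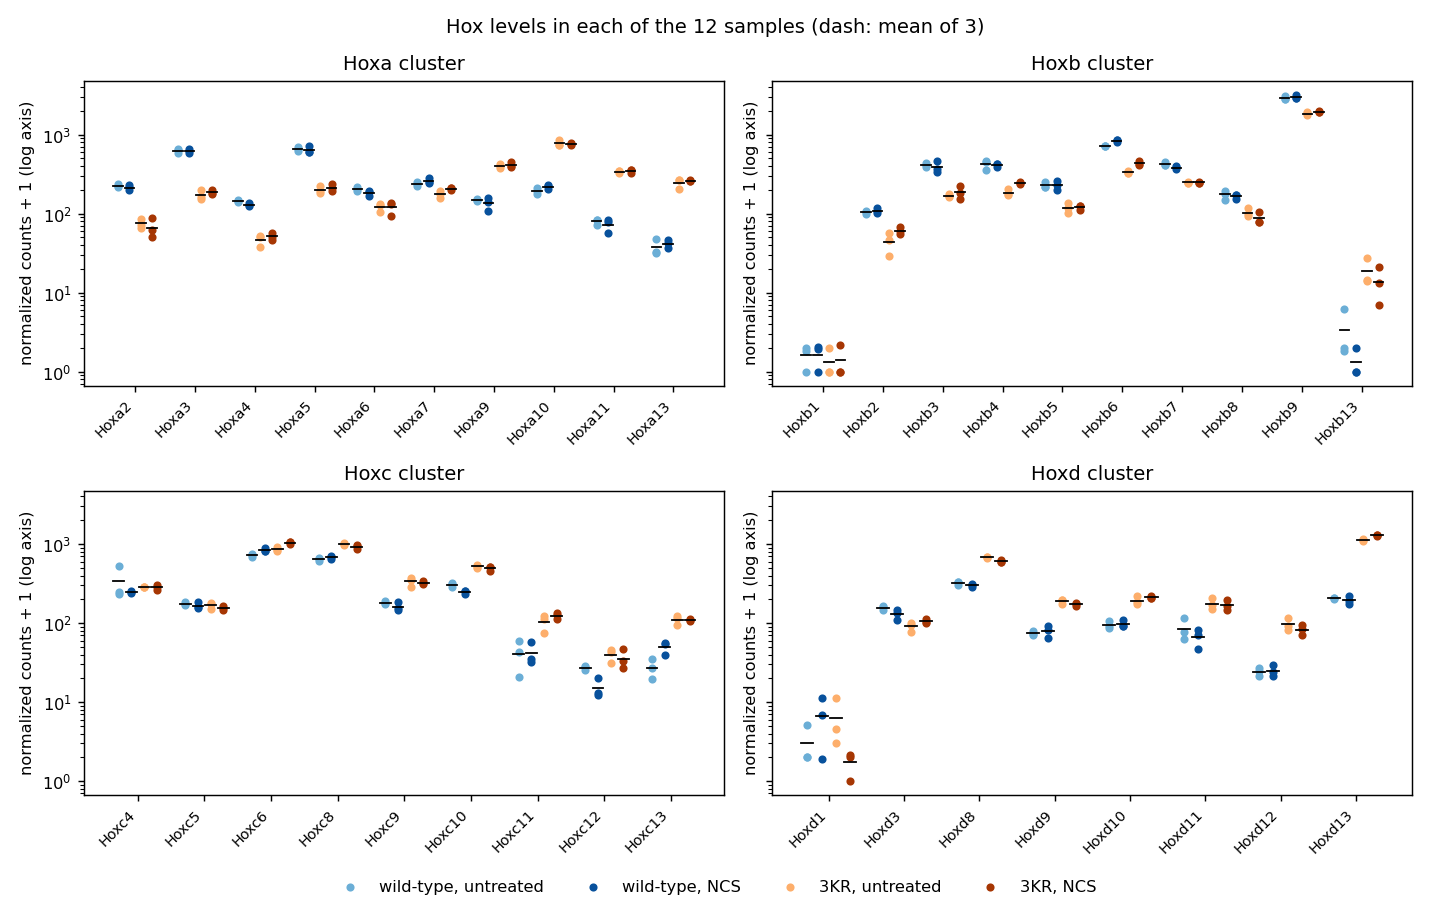
Normalized counts plus 1 (y axis, log scale) of the 37 Hox genes in each of the 12 samples, ordered along each cluster by paralog number (x axis), with a dash for the mean of each group of 3. Hoxd13 reaches at most 219 in wild-type and at least 1104 in 3KR samples, and Hoxc4 shows 1 untreated wild-type sample at 531.

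Read by paralog group, groups 10, 11 and 13 were higher in every member that was tested, in both treatments, where the direction of Hoxb13 was fixed by the filter. The summed level of the 4 group 13 genes was 269 ± 15.3 normalized counts (SD, n = 3) in untreated wild-type and 1498 ± 39.1 in untreated 3KR MEFs, a 5.56-fold difference. Group 11 (3 genes) was 3.02-fold higher, going from 202 ± 35.1 to 611 ± 11.98, and group 10 (3 genes) 2.51-fold, from 593 ± 25.4 to 1490 ± 44.8 (SD, n = 3). In all 3 groups no 3KR sample overlapped a wild-type sample. At the other end, groups 2 and 3 were 2.79-fold lower each, with sums of 327 ± 3.38 against 117 ± 20.5 and of 1196 ± 41.8 against 429 ± 41.2 (SD, n = 3). Paralogs of groups 6, 8 and 9 parted by cluster. In group 9, Hoxb9 was lower while Hoxa9, Hoxc9 and Hoxd9 were higher. In group 8, Hoxb8 was lower while Hoxc8 and Hoxd8 were higher. In group 6, Hoxa6 and Hoxb6 were lower while Hoxc6 was higher. The same holds after NCS.

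The sum over all Hox genes hardly differed while its makeup did. It was 11326 ± 343 normalized counts (SD, n = 3) in untreated wild-type and 11566 ± 154 in untreated 3KR MEFs, and the samples overlapped. After NCS it was 11344 ± 458 and 12066 ± 141, with every 3KR sample above the wild-type samples. The sum over the Hoxa cluster was 2547 ± 109 and 2542 ± 83.6 in untreated cells, with opposite changes within it. Hoxb was 1.76-fold lower, going from 5373 ± 232 to 3048 ± 101, Hoxc 1.40-fold higher, from 2449 ± 109 to 3428 ± 120.2, and Hoxd 2.66-fold higher, from 956 ± 52.9 to 2548 ± 31.0 (SD, n = 3). These 3 clusters did not overlap between genotypes. No test across genes was run on sums.

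As a share of all Hox counts in a sample, posterior genes took 38.9% ± 0.890 (SD, n = 3) in untreated wild-type and 56.2% ± 0.575 in untreated 3KR MEFs, and 38.9% ± 0.856 and 55.8% ± 0.377 after NCS. Anterior genes took 13.5% ± 0.107 and 4.77% ± 0.220 in untreated cells, and central genes 47.6% ± 0.784 and 39.0% ± 0.355. The share of Hoxb went from 47.4% ± 1.18 to 26.3% ± 0.535 and that of Hoxd from 8.44% ± 0.280 to 22.0% ± 0.352, while Hoxa had 22.5% ± 0.493 and 22.0% ± 0.960 (SD, n = 3). Except for Hoxa, the samples of the genotypes did not overlap in these shares. The Hoxa share depended on the weighting. Per kb of exon it was 23.9% ± 0.502 and 20.7% ± 0.829 (SD, n = 3) with no overlap, 3KR minus wild-type -3.25 percentage points, and without the largest gene of each cluster the difference was -6.78. Of single genes, Hoxb9 took 25.5% ± 0.986 of the Hox counts in untreated wild-type and 15.9% ± 0.515 in untreated 3KR MEFs, and Hoxd13 1.81% ± 0.0636 and 9.76% ± 0.299 (SD, n = 3). Without the largest gene of each cluster (Hoxa10, Hoxb9, Hoxc6 and Hoxd13), the posterior share was 24.3 percentage points higher in untreated 3KR MEFs, against 17.3 with them.

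**Figure D3:**
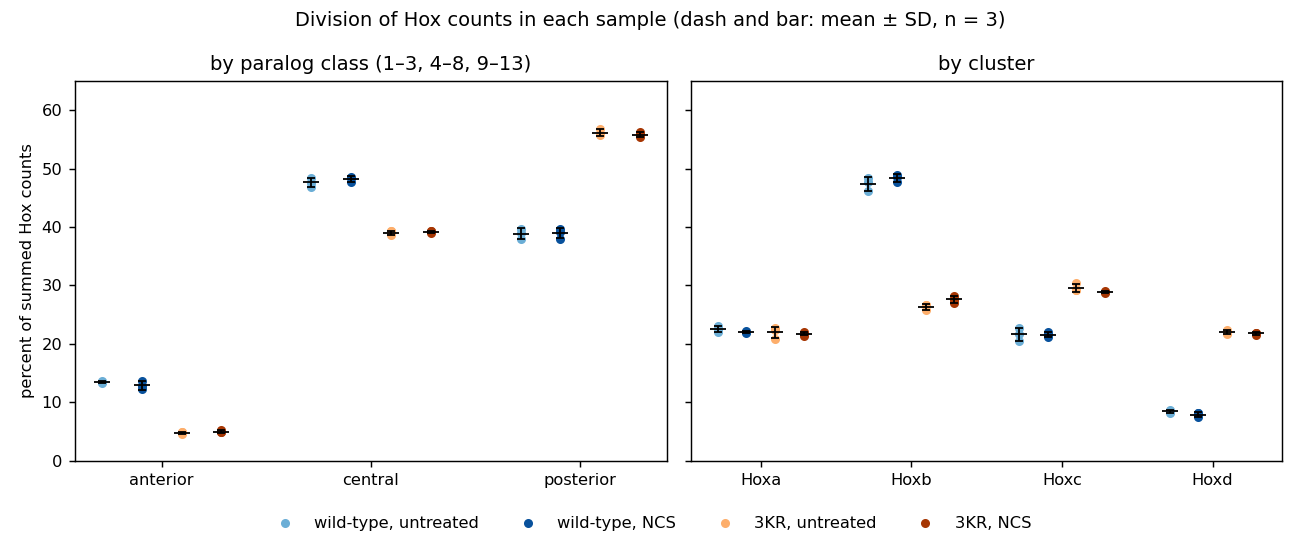
Percent of the summed Hox counts (y axis) taken by each paralog class (left) and each cluster (right) in every sample, with the mean and SD of each group of 3. The posterior share is near 38.9% in wild-type and 56% in 3KR MEFs, and the treated and untreated samples of a genotype lie close together.

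Per kb of exon, Hoxb9 was the most abundant Hox gene in all 4 groups, with 1122 ± 66.9 normalized counts per kb in untreated wild-type and 714 ± 32.4 in untreated 3KR MEFs (SD, n = 3). In untreated wild-type MEFs it was followed by Hoxb6 (366 ± 2.50 per kb), Hoxa5 (349 ± 24.9), Hoxc6 (298 ± 10.6) and Hoxb7 (274 ± 14.4), where the samples of Hoxb6 and Hoxa5 overlapped, as did those of Hoxc6 and Hoxb7. In untreated 3KR MEFs the second gene was Hoxd13 (454 ± 11.3 per kb), which was 16th in wild-type MEFs (82.3 ± 0.556). It was followed by Hoxc6 (359.7 ± 23.2), Hoxc8 (353 ± 6.28) and Hoxc10 (272 ± 9.84), of which Hoxc6 and Hoxc8 overlapped. Hoxa5 went from rank 3 to rank 14 (105 ± 11.3 per kb), Hoxa3 from 13 to 32, Hoxa10 from 21 to 7 and Hoxa13 from 32 to 16. Of the 36 pairs of neighbours in this order, 26 overlapped in untreated wild-type and 22 in untreated 3KR MEFs, so most neighbouring ranks are not separated by these samples. Hoxb1, Hoxd1 and Hoxb13 had the last ranks in every group.

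Few Hox genes were called after NCS. Their median absolute log2 fold change was 0.13 in wild-type and 0.13 in 3KR MEFs, against 0.13 and 0.14 over all genes. In wild-type MEFs, 3 of 35 were higher and 2 lower at an edgeR FDR of 0.05, against 14.3% and 12.4% of all genes. None was called with a change over 1 on the log2 scale in either genotype, against 0.522% higher and 0.391% lower of all genes in wild-type and 0.835% and 0.483% in 3KR MEFs. In 3KR MEFs, 4 were higher, against 15.8% of all genes, and 0 lower, against 15%. At an unadjusted edgeR p under 0.05 were 7 of the 35 Hox genes, against 6127 of all 15327 genes tested. DESeq2 called 0 lower in 3KR MEFs as well. The treated samples lay apart from the untreated ones for 8 Hox genes in wild-type, 3 above and 5 below (18.6% and 16.5% of all genes), and for 9 in 3KR MEFs, 7 above and 2 below (24% and 23.6%). Hoxb6 and Hoxc6, the paralogs of group 6, were higher after NCS in both genotypes. For Hoxb6 the log2 fold change was 0.21 ± 0.06 in wild-type (SE, edgeR FDR = 0.00724) and 0.38 ± 0.07 in 3KR MEFs (FDR = 1.13e-04), and in each genotype the treated samples lay above the untreated ones. For Hoxc6 these values were 0.24 ± 0.06 (edgeR FDR = 0.00415) and 0.27 ± 0.06 (FDR = 0.00119). Their paralog Hoxa6 had -0.17 (edgeR FDR = 0.363) and -0.02 (FDR = 0.932).

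In wild-type MEFs, Hoxc13 also rose, by 0.88 ± 0.23 (SE, edgeR FDR = 0.00559), with 34.0, 26.4 and 18.6 normalized counts in untreated and 39.0, 55.3 and 53.7 in treated samples. Without both wild-type samples numbered 3, this value was 0.63 (FDR = 0.0621). Hoxc10 changed by -0.30 ± 0.08 (SE, edgeR FDR = 0.00811), and its treated samples were all below its untreated samples. Hoxc12 changed by -0.87 ± 0.32 (edgeR FDR = 0.0498), a call lost under 9 of 13 alternatives, with an FDR between 0.0282 and 0.166. In 3KR MEFs, Hoxb4 rose by 0.42 ± 0.11 (SE, edgeR FDR = 0.00518) and Hoxd13 by 0.19 ± 0.06 (FDR = 0.0112). The value for Hoxd13 had an FDR of 0.0553 without untreated 3KR replicate 3. No Hoxa gene was called in either genotype, with log2 fold changes between -0.17 and 0.24 over the 10 genes.

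**Figure D4:**
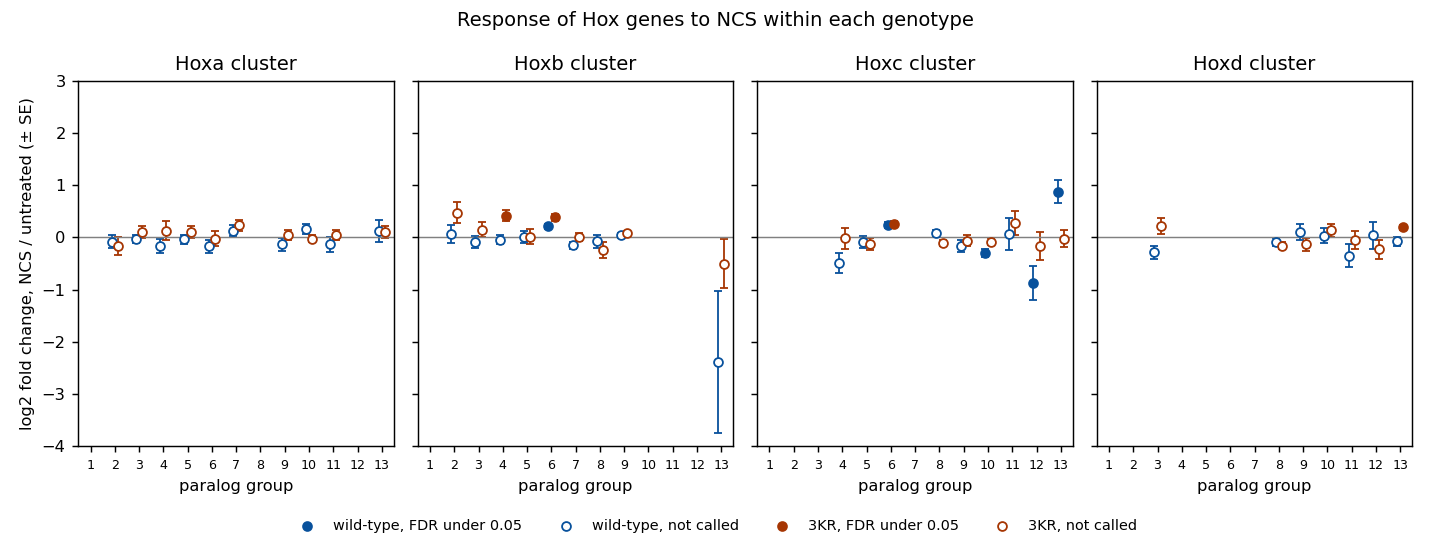
Log2 fold change of NCS-treated against untreated cells (y axis, edgeR estimate, bars ± SE) by paralog group (x axis) in each cluster, for wild-type and 3KR MEFs. Filled points passed an FDR of 0.05 and open points did not. Apart from Hoxb13, which rests on few reads, all values lie between -0.87 and 0.88.

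The response to NCS was compared between the genotypes by the interaction term of the same fit. It was called for 0 of 35 Hox genes by edgeR and for 0 by DESeq2. Over all genes, edgeR called 3.73% (1.86% higher and 1.87% lower, and 0.013% and 0.0783% by over 1 on the log2 scale). At an unadjusted edgeR p under 0.05 were 5 of the 35 Hox genes, against 2499 of all 15327 genes tested. DESeq2 had 6 Hox genes at p under 0.05, and its number over all genes is not given here. The largest difference relative to its error was that of Hoxb4, 0.46 ± 0.14 on the log2 scale (SE, edgeR FDR = 0.0761), where 3KR minus wild-type is given. Hoxc13 had -0.90 ± 0.28 (edgeR FDR = 0.0825), Hoxd3 0.50 ± 0.20 (FDR = 0.194), Hoxd13 0.27 ± 0.10 (FDR = 0.185) and Hoxc8 -0.19 ± 0.08 (FDR = 0.237). With a replicate block, in which the untreated and treated samples of the same genotype and number form a pair, Hoxb4 was called (0.45, edgeR FDR = 0.0227) and the number over all genes went from 572 to 1379. Over 18 alternatives the FDR of Hoxb4 ranged from 0.0134, without untreated wild-type replicate 2, to 0.199. Hoxc13 was called without untreated wild-type replicate 1 (-1.15, edgeR FDR = 0.0426). The correlation of same-numbered samples was 0.145 to 0.336 in wild-type and below 0 in 3KR MEFs.

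Lists of genes that act on Hox clusters or with Hox proteins are given by their counts, to be read against all genes tested, of which 22.1% were higher and 23.6% lower in untreated 3KR MEFs and 22.9% and 23.6% after NCS. TALE proteins of the PBX, MEIS and PKNOX families bind DNA together with Hox proteins. Of 9, 1 was higher and 4 lower in untreated 3KR MEFs, with a median log2 fold change of -0.09 against -0.000356 over all genes. Pbx3 (-0.36, edgeR FDR = 1.16e-04) and Meis3 (-0.18, FDR = 0.00391) were lower and Pknox1 (0.18, FDR = 0.0101) was higher, and after NCS 5 were lower and 0 higher. Polycomb proteins keep Hox genes silent. Of 29, 5 were higher and 7 lower without treatment and 8 and 6 after NCS, near the shares over all genes. In untreated cells Cbx6, which reads methylated histone H3, was higher (0.35, edgeR FDR = 2.31e-08), and Phc2 (-0.40, FDR = 3.53e-08), Phf1 (-0.33, FDR = 1.36e-05) and Pcgf3 (-0.21, FDR = 2.19e-05), subunits of Polycomb complexes, were lower. MLL and trithorax proteins keep Hox genes active, and of 14, 3 were higher and 1 lower in untreated 3KR MEFs and 3 and 3 after NCS. Kdm6a, an X-linked histone H3 demethylase gene that escapes X inactivation, was higher (0.90, edgeR FDR = 4.88e-12), Dot1l, a histone H3 methyltransferase gene, lower (-0.56, FDR = 9.05e-10), and Kmt2c (0.30, FDR = 6.60e-04) and Psip1 (0.12, FDR = 0.018) higher. Xist and the Y-linked genes move with the same comparison.

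Retinoic acid switches on anterior Hox genes in the embryo. Of 16 tested genes of its pathway, 5 were higher and 5 lower in untreated 3KR MEFs, and 5 and 4 after NCS, where 45.7% and 46.5% of all genes were called in either direction. Crabp1, which binds retinoic acid in the cell, had 1830.2 ± 38.8 normalized counts (SD, n = 3) in untreated wild-type and 6506 ± 40.0 in untreated 3KR MEFs (1.82, edgeR FDR = 3.40e-20). Cyp26b1, which degrades retinoic acid, was higher (1.27, edgeR FDR = 1.33e-17), as was Dhrs3, which reduces its precursor (0.96, FDR = 1.61e-10), and Aldh1a3, an enzyme of its synthesis, was lower (-0.76, FDR = 3.51e-10). Of 10 Cdx and other upstream genes only 2 were tested. Gdf11, a signal that turns on posterior Hox genes in the trunk, was lower, with 812 ± 54.9 and 582 ± 9.55 normalized counts (SD, n = 3, -0.49, edgeR FDR = 5.94e-07). The 3 Cdx genes averaged under 3 normalized counts in every group.

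Of 10 noncoding RNAs of the clusters that were tested, 2 were higher and 6 lower in untreated 3KR MEFs, and 2 and 7 after NCS. Hoxa11os was higher (2.56, edgeR FDR = 6.67e-13), with 43.7 ± 11.1 and 264 ± 23.9 normalized counts (SD, n = 3), and Hoxb3os (-1.33, FDR = 5.17e-10), Hoxb5os (-0.95, FDR = 5.75e-07) and Hoxaas2 (-1.20, FDR = 1.96e-04) were lower. Their exons overlap Hox genes, so reads may have been counted for the wrong gene or left out, as given above. Of 11 tested genes that flank the clusters, 2 were higher and 2 lower in untreated 3KR MEFs, against 45.7% of all genes called in either direction. Evx2, a homeobox gene next to Hoxd13, had 1.66, 9.13 and 2.07 normalized counts in untreated wild-type and 28.2, 28.1 and 48.2 in untreated 3KR MEFs (3.04, edgeR FDR = 1.50e-05). On these values it reached the filter on low counts in untreated 3KR but not in untreated wild-type MEFs. The direction of Evx2 may thus have been fixed by the filter. Skap2, beside the Hoxa cluster at its anterior end, was lower (-0.55, edgeR FDR = 4.21e-06), as was Atf2 (-0.13, FDR = 0.00696), and Calcoco1 was higher (0.21, FDR = 3.55e-04).

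Of the genes that mark regions of the body, Tbx4, which specifies the hindlimb, had 61.6 ± 10.3 normalized counts (SD, n = 3) in untreated wild-type and 729 ± 17.3 in untreated 3KR MEFs (3.55, edgeR FDR = 5.11e-18). Pitx1, which acts before it, had 70.1 ± 10.1 and 789 ± 26.9, and Tbx5, which specifies the forelimb, 47.8 ± 4.29 and 395 ± 39.0 (SD, n = 3). These 3 genes were chosen after their values were seen. In these samples the genotype, the sex of the embryos and the mix of body regions in the cultures cannot be told apart as sources of the Hox differences.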

How the data were processed

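Per the labels, stranded mRNA libraries were made from total RNA of 12 samples, and the submitters' processing notes name TopHat, HTSeq and DESeq and the mouse build mm9, with no versions. The authors deposited raw counts of reads per Ensembl gene, with no normalization. Symbols and exon lengths were taken from GENCODE release M21 (GRCm38), so no coordinates of the counted genes are printed. The strand setting of HTSeq is not given in the sources used here.

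Counts were tested with the edgeR quasi-likelihood test (edgeR 4.0.16, R 4.3.3), with 1 coefficient for each of the 4 groups, TMM scaling, the filterByExpr filter (15327 of 37991 genes kept) and Benjamini-Hochberg adjustment over all genes tested, and called at an FDR of 0.05. DESeq2 1.42.0 gave size factors and an alternative test. The depth of 33203757 to 45279321 counts puts the lower limit of 3 counts at 0.0663 to 0.0904 CPM. Counts were simulated for 15327 genes with the same spread for every gene, and 100 genes each were changed by 1 and 2 on the log2 scale. The untreated genotype comparison recovered 94% and 97% of these, and 5.91% of its calls were false. Far fewer genes were changed there than were called in the data, so these rates may not hold for the data.

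Hox genes called in a genotype comparison, with a mean of at least 50 normalized counts in some group, are given in every sample. The members and gene lists were chosen with earlier results of these data known. Same-numbered samples of wild-type MEFs deviated together (correlations 0.158, 0.145 and 0.336 over 11458 genes), by which rule their numbers pair them, but wild-type samples numbered 1 and 2 correlated as much across numbers (0.139 and 0.149), so that only the samples numbered 3 stood apart, and those of 3KR MEFs did not (-0.147, -0.126 and -0.019). The alternatives were another scaling, another tool, other filters, only the 6 samples compared, a replicate block and leaving out each sample. Leaving out both wild-type samples numbered 3, or Hoxb13 from the rank correlations, was chosen after seeing the data.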

Additional observations from a re-analysis of the deposited data

How the results depend on the processing

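Of 454 values of single Hox genes recomputed for the untreated genotype comparison, 450 kept their direction and side of the threshold, 3 passed it anew and 1 reversed. After NCS, 451 of 453 did, 1 was lost and 1 gained. The reversal was Hoxc4, whose log2 fold change ran from -0.47 to 0.25 as each sample was left out. Calls under NCS were less stable. In wild-type MEFs, 1 Hox gene was lower with DESeq2 size factors, with the DESeq2 test and with only the 6 samples compared, and 1 to 2 as each sample was left out. Over all genes, 3292 to 4604 were called in wild-type MEFs as each sample was left out. In 3KR MEFs, 1 Hox gene was lower with only the 6 samples compared and without both wild-type samples numbered 3. For the difference in NCS response, 2 Hox genes were higher and 1 lower with no filter, 1 higher with the replicate block, 2 higher without both wild-type samples numbered 3, and 0 to 1 in each direction as each sample was left out. Over all genes this difference was called for 572, for 1379 with the replicate block, for 1842 without both wild-type samples numbered 3, and for 345 to 1159 as each sample was left out (345 without untreated 3KR replicate 3, 1159 without untreated wild-type replicate 3). The number over all genes with no filter is not given here. With the replicate block, genotype counts were 17 higher and 15 lower without treatment and 18 and 14 after NCS, as without it. The cause of these shifts was not tested.

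Shares of Hox counts, as 3KR minus wild-type in percentage points, moved with the weighting. Per kb of exon, untreated cells gave -3.25 for Hoxa, 9.26 for Hoxc, 13.998 for Hoxd, -5.30 for anterior and -12.4 for central genes, and NCS-treated cells -2.81 for Hoxa, -19.97 for Hoxb, 8.67 for Hoxc, -4.94 for anterior and -12.3 for central genes. Without the largest gene of each cluster, untreated cells gave -6.78 for Hoxa, -16.6 for Hoxb, 13.2 for Hoxc, 10.1 for Hoxd, -12.9 for anterior, -11.4 for central and 24.3 for posterior genes. NCS-treated cells then gave -5.80, -15.7, 12.2, 9.24, -12.0, -12.5 and 24.6 in the same order. The untreated Hoxa share difference ran from -0.835 to 0.048 as each sample was left out, and changed sign without untreated 3KR replicate 3. Scaled by library totals, the Hoxd sum was 879 in NCS-treated wild-type and 2620 in untreated 3KR MEFs.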
